A study of Mus musculus with 12 samples.

Results

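The 55 genes described here encode the machinery of mitosis and cytokinesis, from the kinases that bring a cell into division to the proteins that pinch its daughters apart. They were taken by gene symbol from a list. Of these, 54 had a probe set that the platform annotation gives to 1 gene symbol, out of 18194 genes measured in this way. Ccnb1, a B-type cyclin that binds Cdk1, was the member not analysed here. Where a gene had several probe sets, its brightest one, by mean log2 signal on all 12 arrays, was used.

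Entry into mitosis is driven by Cdk1 bound to its cyclins, which the Cdc25 phosphatases switch on with help from the Polo-like and Aurora kinases. Condensin compacts the chromosomes, kinetochores attach them to the spindle, and the spindle checkpoint holds back anaphase until every chromosome is attached. Most of these transcripts peak late in the cell cycle and are used as proliferation markers. Granule cell progenitors are the dividing neuronal precursors of the external granule layer of the postnatal cerebellum. Their division is driven by sonic hedgehog from Purkinje cells, and they are the cells of origin of hedgehog-driven medulloblastoma.

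The arrays hold progenitors of postnatal day 8 mice, enriched on a Percoll gradient, from either the hemispheres (the lateral cerebellum) or the vermis (the midline). Wild type mice were set against mice labelled Atoh1-CreER/+; R26LSL-SmoM2-YFP, which had received 200 µg of tamoxifen per g at postnatal day 2. In these, a tamoxifen-dependent Cre driven by Atoh1, which is active in the granule cell lineage, switches on SmoM2, a Smoothened receptor that signals without ligand, fused to a fluorescent protein. All mice were of a mixed C57BL/6 and Swiss Webster background, and the sources used here do not say whether the wild type received tamoxifen. There were 4 groups of 3 arrays, each array made from a pool of 5 mice, and the title of the study asks about hedgehog sensitivity of the lateral cerebellum. The share of progenitors that recombined was not analysed here. Values are log2 signals of Affymetrix 3′ expression arrays of the mouse genome, and a difference of 1 on this scale is a fold of 2. In bulk RNA, a larger share of dividing cells and more of a transcript per dividing cell cannot be told apart.

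Hedgehog targets followed the genotype labels, with Gli1 higher in SmoM2 arrays by 1.68 in hemisphere and 1.50 in vermis, and Ptch1 by 1.69 and 1.83. Array medians lay between 4.81 and 4.87. Other cell types and the degree of differentiation moved with genotype as well. Of 28 measured granule neuron differentiation genes, 17 fell and 3 rose in hemisphere, and 18 fell and 1 rose in vermis. Their mean level ranged over 9.27 to 9.47 and 9.33 to 9.49 on wild type hemisphere and vermis arrays, against 8.60 to 8.80 and 8.57 to 8.71 on SmoM2 arrays. Of 16 oligodendrocyte lineage genes, 11 fell and 3 rose in each region. Their mean level was 8.31 to 8.34 and 8.55 to 8.92 in wild type and 7.50 to 8.00 and 7.57 to 8.03 in SmoM2 arrays. Of 12 microglial genes, 9 fell in each region. Among all genes, 7.18% were called lower and 7.62% higher in hemisphere, and 9.46% and 7.56% in vermis. Other lists were less uniform. Of 12 granule cell progenitor genes, 3 fell and 4 rose in hemisphere, and 2 fell and 4 rose in vermis. Of 12 astroglial genes, 4 fell and 3 rose in hemisphere, and 3 fell and 3 rose in vermis. Of 12 endothelial and pericyte genes, 0 were called in hemisphere and 4 fell in vermis. The part of these shifts in the mitotic results was not tested. The spiked-in dap controls read 9.77, 9.10 and 8.06 on the wild type hemisphere arrays, each below every other array (10.03 to 11.22). The bioB controls read 8.84, 8.75 and 7.15 on these arrays. The 3' minus 5' difference of Actb averaged 0.64 ± 0.17 (SD, n = 3) in the wild type hemisphere group against 0.89 ± 0.01 to 0.98 ± 0.11 in the other 3. That group enters the SmoM2 comparison in hemisphere and the wild type comparison of regions. The 18S rRNA signal moved with genotype, with means of 10.55 and 10.65 on wild type hemisphere and vermis arrays against 11.18 and 11.23 on SmoM2 arrays. The part of these technical values was not tested either.

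Averaged over both regions, 26 of the 54 mitotic genes rose in SmoM2 progenitors and 0 fell. The test was limma over all 18194 genes, with no term for the pool, Benjamini-Hochberg adjustment and a threshold of 0.05. Among all genes, 15.4% were called higher and 20.1% lower in this comparison. The median member difference was 0.25, against -0.06 over all genes, and 49 of 54 differences lay above 0. The changes were small. Smc2 (1.66-fold), Kif20a (1.55-fold) and Plk1 (1.52-fold) were the 3 members past 1.5-fold, and 0 were past 2-fold. In 9 members every one of the 6 SmoM2 arrays read above every one of the 6 wild type arrays, which held for 8.11% of all genes. These were Plk1, Cdc20, Espl1, Incenp, Cdca8, Spc24, Kif2c, Smc2 and Smc4.

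Within regions the calls were fewer and less stable. In vermis 20 members rose and 0 fell, where 7.56% of all genes were called higher and 9.46% lower, and the median member difference was 0.34 against -0.06. In hemisphere 3 members rose (Smc2, Ncaph and Kif2c) and 0 fell, where 7.62% of all genes were called higher and 7.18% lower, and the median was 0.16 against -0.05. The share of members called higher in hemisphere was thus not above that of all genes. At an unadjusted p under 0.05, 31 members were higher in vermis and 14 in hemisphere. Omitting the wild type vermis array of replicate 2 or of replicate 3, or the SmoM2 vermis array of replicate 2, gave 2 vermis calls. Omitting SmoM2 vermis array 1 gave 9, and omitting SmoM2 vermis array 3 gave 7. In hemisphere, omitting wild type hemisphere array 1 gave 13 calls and omitting wild type vermis array 1 gave 5. Omitting wild type hemisphere array 2, or any 1 of the 3 SmoM2 hemisphere arrays, gave 1, which was Smc2. Omitting wild type vermis array 2 or any 1 of the SmoM2 vermis arrays gave 2, Smc2 and Ncaph. Omitting wild type hemisphere array 3, which has the lowest spike-in signals, also gave 2, but ended the calls of Kif2c and Ncaph and kept Smc2. The hemisphere median became 0.0939 when wild type hemisphere array 3 was omitted and 0.0933 when SmoM2 hemisphere array 2 was. Counting each pair of same-numbered hemisphere and vermis arrays as 1 pool, as a random block, gave 5 calls in hemisphere, 24 in vermis and 20 in the average. The averaged count lay between 19 and 34 with any 1 array left out.

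**Figure D1:**
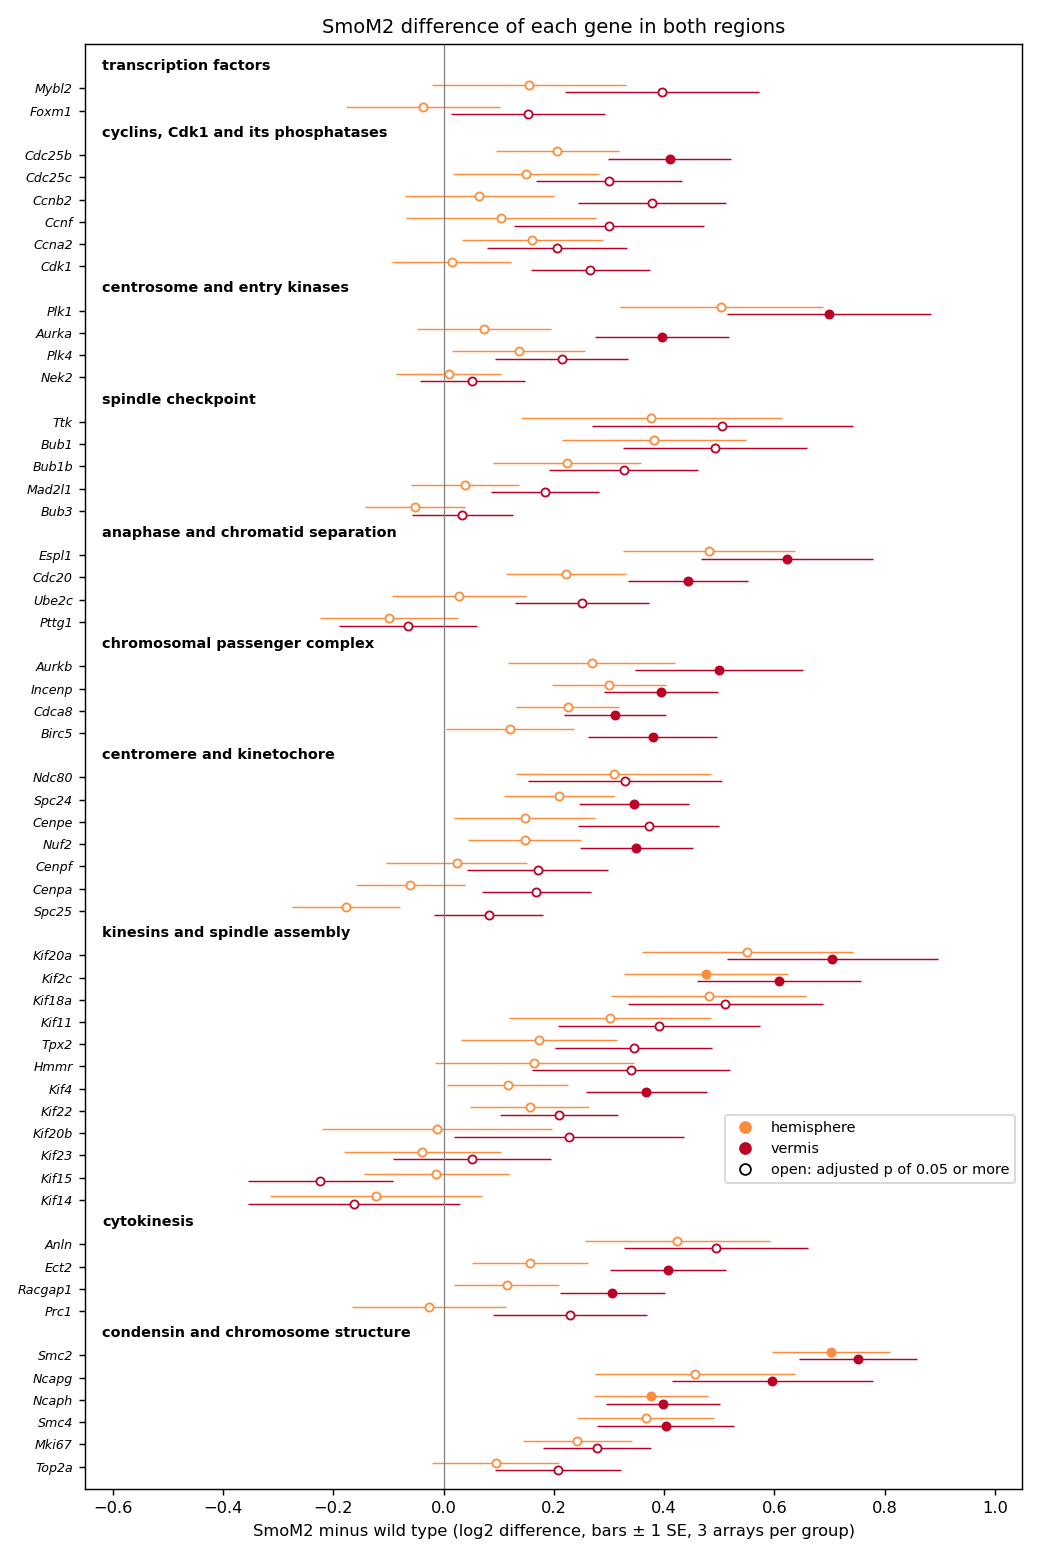
SmoM2 minus wild type log2 difference (horizontal axis) of each of the 54 genes, grouped by role, in hemisphere and vermis, with bars of 1 SE and filled points where the adjusted p is under 0.05. The 3 filled hemisphere points are Smc2, Ncaph and Kif2c, and 20 vermis points are filled, none of them below 0.

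Of the 26 averaged calls, 19 were kept whichever 1 array was left out. The other 7 were Aurka, Bub1b, Birc5, Cenpe, Nuf2, Kif4 and Racgap1, whose adjusted p then reached values between 0.0501 and 0.115. With quantile normalization repeated these 7 and Cdc25b were not called, while averaging each gene's probe sets ended the calls of Aurka, Bub1b, Kif2c and Anln. In the vermis Smc2 alone kept its call through all 12 omissions, and the same was true in the hemisphere.

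Promoter sequence was available for 46 of the 55 genes in the RefSeq table of GRCm38.p6, as 49 promoters of 300 bases, from 250 before to 50 after the start. A pair of elements marks many promoters of late cell cycle genes: the cell cycle genes homology region, searched as TTTGAA, and the CCAAT box, which NF-Y binds. Both were searched on both strands, where they read TTCAAA and, for the box, ATTGG. Matches can share letters, as do CCAAT at -186 and ATTGG at -183 from the start in Ube2c, and TTTGAA at 13 and ATTGG at 18 in Cdca8. TTTGAA was found in 36 of 49 member promoters (73.5%), against 17.9% of the 32851 promoters in the table and 13.4% of the promoters of genes tested. CCAAT was also found in 36 (73.5%), against 37.4% of all promoters, and both in 31 (63.3%), against 6.95%. The E2F-type words TTTCCCGC or TTTGGCGC, typical of replication genes, were found in 3 (6.12%). They were found in 1.56% of all promoters and 2.34% of the promoters of genes tested. A match is a description of these letters and not a bound site. Calls fell on both sides of this word: 14 of 33 measured genes with TTTGAA rose in the averaged comparison (median difference 0.24), and 7 of 12 without it (median 0.25).

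The 120 bases before the start are shown for 6 genes, as examples of windows with both elements (Cdk1, Cdc20 and Espl1), with 1 of them (Mki67 and Smc2) and with neither (Ncaph). Sequences run 5′ to 3′ on the gene's strand, and capitals mark TTTGAA and CCAAT matches on either strand. Cdk1 lies on the minus strand at chr10:69352913-69353032, Cdc20 on the minus strand at chr4:118437344-118437463, and Espl1 on the plus strand at chr15:102296173-102296292. Mki67 lies on the minus strand at chr7:135716380-135716499, Smc2 on the plus strand at chr4:52439101-52439220, and Ncaph on the minus strand at chr2:127133955-127134074.
Cdk1: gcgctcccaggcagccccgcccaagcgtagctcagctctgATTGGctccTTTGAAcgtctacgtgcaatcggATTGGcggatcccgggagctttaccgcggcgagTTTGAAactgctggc
Cdc20: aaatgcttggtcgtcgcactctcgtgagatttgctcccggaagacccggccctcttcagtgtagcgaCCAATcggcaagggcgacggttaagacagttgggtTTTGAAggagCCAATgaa
Espl1: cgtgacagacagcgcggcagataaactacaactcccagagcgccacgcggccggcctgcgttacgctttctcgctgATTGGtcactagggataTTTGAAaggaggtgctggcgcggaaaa
Mki67: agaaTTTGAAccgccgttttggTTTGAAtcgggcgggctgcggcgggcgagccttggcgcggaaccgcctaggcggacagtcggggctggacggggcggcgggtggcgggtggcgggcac
Smc2: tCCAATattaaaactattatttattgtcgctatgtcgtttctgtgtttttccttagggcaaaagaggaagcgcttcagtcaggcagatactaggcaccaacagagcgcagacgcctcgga
Ncaph: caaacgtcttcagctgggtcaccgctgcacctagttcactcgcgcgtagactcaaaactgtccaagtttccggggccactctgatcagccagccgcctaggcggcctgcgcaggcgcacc
Cdk1 held TTTGAA at -71 and -15 from the start, and Espl1 held it at -27, next to CCAAT at -44. Smc2 held CCAAT at -119 and had TTTGAA only outside the window, at -145 and 26, Mki67 had CCAAT only outside it, at -188, -166 and -141, and the whole Ncaph promoter held neither word. Cdk1, with 2 copies of each element in the window, was not called in any comparison, while Ncaph was called in both regions. Cdk1 was shown as a fixed choice and Ncaph for its small averaged adjusted p. The pair is an example, and a link between words and calls was not tested.

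On the probe sets used, the transcription factors that act on such promoters did not pass the test. Foxm1, which activates late cell cycle genes, read 6.75, 6.82 and 7.08 on the wild type hemisphere arrays (replicates 1, 2 and 3 in this order here and below) and 6.88, 7.01 and 6.65 on the SmoM2 ones. In vermis it read 6.80, 6.42 and 6.83 against 6.85, 6.69 and 6.96. The groups overlapped in both regions, and the averaged difference was 0.06 ± 0.10 (SE; adjusted p = 0.665 by limma). A nearly as bright Foxm1 probe set differed by 0.21 in hemisphere, the opposite sign, and by 0.29 on average (adjusted p over all probe sets = 0.0564 by limma). Mybl2, the Myb partner of the MuvB complex, differed by 0.16 in hemisphere, 0.40 in vermis and 0.28 ± 0.12 on average (adjusted p = 0.0974 by limma), with overlapping arrays in both regions. The other, dimmer Mybl2 probe set differed by 0.40 on average and passed (adjusted p over all probe sets = 0.0156 by limma).

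Among the 6 cyclins, Cdk1 and its phosphatases, Cdc25b was the 1 that rose. Cdc25b removes inhibitory phosphates from Cdk1. It read 7.59, 7.45 and 7.62 on wild type and 7.62, 7.98 and 7.68 on SmoM2 hemisphere arrays. In vermis it read 7.22, 7.17 and 7.33 against 7.56, 7.75 and 7.64. The groups did not overlap in either region, although the hemisphere gap was within rounding. The averaged difference was 0.31 ± 0.08 (adjusted p = 0.00902 by limma), and with quantile normalization repeated it was 0.20 and not called (adjusted p = 0.0689 by limma). Cdk1 itself read 10.33, 10.01 and 10.16 against 10.13, 10.26 and 10.16 in hemisphere, and 10.04, 10.01 and 9.78 against 10.17, 10.23 and 10.23 in vermis. Its hemisphere arrays overlapped and its vermis arrays did not. The averaged difference of Cdk1 was 0.14 ± 0.08 (adjusted p = 0.162 by limma), with a 95% interval from -0.02 to 0.30. Cdc25c, a related phosphatase, differed by 0.22 ± 0.09 (adjusted p = 0.0751 by limma). Ccna2, Ccnb2 and Ccnf, the cyclins measured, differed by 0.18, 0.22 and 0.20 on average and did not pass.

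Of the 4 centrosome and entry kinases, Plk1 and Aurka rose in the averaged comparison. Plk1, the Polo-like kinase needed for mitotic entry and spindle formation, read 7.60, 6.99 and 7.40 on wild type hemisphere arrays against 7.77, 7.97 and 7.76. In vermis it read 7.56, 6.99 and 6.81 against 7.65, 7.90 and 7.92. Every SmoM2 array was above every wild type array, and the wild type values were the more spread. Its averaged difference was 0.60 ± 0.13 (adjusted p = 0.00331 by limma). Aurka, the Aurora kinase of the spindle poles, read 8.39, 8.11 and 8.18 against 8.37, 8.40 and 8.12 in hemisphere, and 8.05, 7.95 and 7.70 against 8.21, 8.36 and 8.32 in vermis. The hemisphere groups overlapped and the vermis groups did not. Aurka differed by 0.07 in hemisphere, 0.40 ± 0.12 in vermis and 0.24 ± 0.09 on average (adjusted p = 0.0467 by limma). That averaged call ended in 9 of 12 omissions of 1 array, with adjusted p of 0.0568 to 0.115, and held when the omitted array was wild type hemisphere 1, wild type vermis 1 or SmoM2 hemisphere 3. Under a random block for the pool it was not called (adjusted p = 0.103 by limma). Plk4, which starts centriole duplication, and Nek2, which splits centrosomes, differed by 0.18 and 0.03 and did not pass.

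Of 5 spindle checkpoint genes, Bub1 and Bub1b rose. Bub1, the kinase that recruits checkpoint proteins to kinetochores, read 10.23, 9.87 and 9.47 against 10.35, 10.24 and 10.12 in hemisphere, and 9.96, 9.67 and 9.48 against 10.28, 10.18 and 10.13 in vermis. The vermis arrays did not overlap, whereas the first wild type hemisphere array reached into the SmoM2 range. The averaged difference of Bub1 was 0.44 ± 0.12 (adjusted p = 0.0121 by limma). Bub1b, a subunit of the mitotic checkpoint complex, differed by 0.28 ± 0.10 (adjusted p = 0.0379 by limma). The Bub1b call ended in 9 of 12 omissions, with adjusted p of 0.0593 to 0.0941, and held when the omitted array was wild type hemisphere 1, wild type vermis 1 or SmoM2 hemisphere 3. Under a random block for the pool it was not called (adjusted p = 0.0741 by limma). The next brightest Bub1b probe set differed by 0.25 on average and did not pass (adjusted p over all probe sets = 0.0602 by limma). The dimmest one differed by 0.02. Ttk, the Mps1 kinase, had as large a difference as Bub1 (0.44) with a larger SE of 0.17 and did not pass (adjusted p = 0.0539 by limma). The checkpoint proteins Mad2l1 and Bub3 differed by 0.11 and -0.01.

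Genes of anaphase onset split into Cdc20 and Espl1, which rose, and Ube2c and Pttg1, which did not pass. Cdc20 activates the anaphase-promoting complex. It read 10.95, 10.67 and 10.97 against 11.10, 11.17 and 10.99 in hemisphere, and 10.82, 10.63 and 10.61 against 11.10, 11.17 and 11.11 in vermis. Espl1, or separase, the protease that opens cohesin, read 8.14, 7.61 and 8.22 against 8.54, 8.52 and 8.35 in hemisphere, and 8.05, 7.58 and 7.71 against 8.30, 8.51 and 8.40 in vermis. For both genes all SmoM2 arrays were above all wild type arrays. Cdc20 differed by 0.33 ± 0.08 (adjusted p = 0.0048) and Espl1 by 0.55 ± 0.11 (adjusted p = 0.00191), both averaged and by limma. Pttg1, or securin, which holds separase inactive, differed by -0.08 on average (adjusted p = 0.479 by limma). Ube2c, the ubiquitin-conjugating enzyme of the anaphase-promoting complex, differed by 0.14.

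All 4 subunits of the chromosomal passenger complex, which corrects chromosome attachment and later acts in cytokinesis, rose in the averaged comparison, and 3 of them when the pool was a random block. Incenp, its scaffold, read 9.73, 9.54 and 9.81 against 10.10, 9.96 and 9.92 in hemisphere, and 9.63, 9.41 and 9.53 against 9.93, 9.94 and 9.88 in vermis. Cdca8, or borealin, read 10.12, 9.90 and 10.07 against 10.29, 10.21 and 10.25, and 9.91, 9.80 and 9.93 against 10.19, 10.19 and 10.19. Neither gene overlapped between genotypes over all 12 arrays. Incenp differed by 0.35 ± 0.07 (adjusted p = 0.0027) and Cdca8 by 0.27 ± 0.07 (adjusted p = 0.00708), by limma. Aurkb, the kinase of the complex, read 8.24, 7.90 and 8.17 against 8.21, 8.61 and 8.29 in hemisphere, and 8.04, 7.63 and 7.71 against 8.06, 8.49 and 8.31 in vermis. Its hemisphere groups overlapped and its vermis groups did not, and the averaged difference was 0.38 ± 0.11 (adjusted p = 0.0142 by limma). Birc5, or survivin, differed by 0.25 ± 0.08 (adjusted p = 0.0304 by limma), a call that ended in 6 of 12 omissions, with adjusted p of 0.0506 to 0.0765. The arrays whose omission ended it were wild type hemisphere replicates 2 and 3, wild type vermis replicate 3, SmoM2 hemisphere replicate 2 and SmoM2 vermis replicates 2 and 3. Under a random block for the pool Birc5 had an adjusted p of 0.0734 by limma.

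Of 7 centromere and kinetochore genes, Spc24, Nuf2 and Cenpe rose. Spc24, a subunit of the Ndc80 complex that grips microtubules, read 8.58, 8.39 and 8.67 against 8.67, 8.85 and 8.74 in hemisphere, and 8.40, 8.40 and 8.45 against 8.78, 8.83 and 8.68 in vermis. The genotypes did not overlap, with the hemisphere gap within rounding, and Spc24 differed by 0.28 ± 0.07 (adjusted p = 0.00869 by limma). Nuf2, of the same complex, differed by 0.25 ± 0.07 (adjusted p = 0.0182 by limma), a call that ended in 1 of 12 omissions, that of SmoM2 vermis replicate 2 (adjusted p = 0.0521), and with quantile normalization repeated (0.14, adjusted p = 0.139). Cenpe, the kinetochore kinesin that moves chromosomes to the spindle equator, differed by 0.26 ± 0.09 (adjusted p = 0.0393 by limma). Its call ended in 10 of 12 omissions, with adjusted p of 0.0536 to 0.0973, and was kept without wild type hemisphere replicate 1 or wild type vermis replicate 1. Under a random block for the pool Cenpe had an adjusted p of 0.0709 by limma. A nearly as bright Cenpe probe set differed by 0.44 on average and passed (adjusted p over all probe sets = 0.00831 by limma). The other subunits of the Ndc80 complex did not pass: Ndc80 differed by 0.32 (adjusted p = 0.06 by limma) and Spc25 by -0.05 on average. Spc25 was the 1 member whose SmoM2 hemisphere arrays all lay below the wild type ones, by -0.18 ± 0.10 (adjusted p = 0.238 by limma). The centromere proteins Cenpa and Cenpf differed by 0.05 and 0.10.

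The 12 kinesins and spindle assembly factors were mixed, with 4 that rose and 8 that did not pass. Kif2c, a kinesin that shortens microtubules at centromeres, read 8.74, 8.21 and 8.27 against 8.86, 9.03 and 8.75 in hemisphere, and 8.49, 8.22 and 8.03 against 8.84, 8.83 and 8.90 in vermis. Kif20a, which works at the central spindle, read 8.44, 7.71 and 7.63 against 8.44, 8.67 and 8.33 in hemisphere, and 8.08, 7.87 and 7.54 against 8.47, 8.64 and 8.50 in vermis. The first wild type hemisphere array was the highest wild type array for both. Kif2c did not overlap between genotypes, and Kif20a overlapped in hemisphere only. Kif2c differed by 0.48 ± 0.15 in hemisphere (adjusted p = 0.0449 by limma), 0.61 in vermis (0.0132) and 0.54 ± 0.10 on average (0.00148). The hemisphere call of Kif2c ended in 9 of 12 omissions, with adjusted p of 0.0562 to 0.161, and held when the omitted array was wild type hemisphere 1, wild type vermis 1 or wild type vermis 3. Its vermis call ended without wild type vermis replicate 3 (adjusted p = 0.062). The probe sets of Kif2c did not move together: the next brightest differed by 0.45 and 0.51 in hemisphere and vermis, the others by -0.27 and -0.34 and by -0.04 and -0.15. With the mean of all its probe sets Kif2c was not called in hemisphere, vermis or on average, where it differed by 0.15 (adjusted p = 0.13 by limma).

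Kif20a differed by 0.63 ± 0.14 (adjusted p = 0.00316 by limma) and Kif18a, which limits chromosome movement, by 0.50 ± 0.12 (adjusted p = 0.00813 by limma), both on average. Kif4, a chromosome-bound kinesin, differed by 0.24 ± 0.08 (adjusted p = 0.028 by limma), a call that ended in 7 of 12 omissions, with adjusted p of 0.0515 to 0.0703. The arrays whose omission ended it were wild type hemisphere replicate 3, wild type vermis replicates 2 and 3, SmoM2 hemisphere replicates 2 and 3, and SmoM2 vermis replicates 2 and 3. Under a random block for the pool Kif4 had an adjusted p of 0.0588 by limma. Among those that did not pass, Kif11, the motor that separates spindle poles, differed by 0.35 (adjusted p = 0.051 by limma), and Tpx2, which activates Aurora A, by 0.26 (adjusted p = 0.0588 by limma). Kif22, Hmmr, Kif20b, Kif23, Kif15 and Kif14 differed by 0.18, 0.25, 0.11, 0.01, -0.12 and -0.14. Both other probe sets of Kif22 differed by more, 0.55 and 0.50, and passed (adjusted p over all probe sets = 0.00114 and 0.00312 by limma), as did 1 of the 4 other Hmmr probe sets (0.44, 0.0125). Kif14 and Kif15 were the 2 members whose probe set lay below the highest array median, so their values say least.

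Of the 4 cytokinesis genes, Anln, Ect2 and Racgap1 rose and Prc1 did not pass. Anln, or anillin, the scaffold of the contractile ring, read 8.94, 8.58 and 8.39 against 9.04, 9.10 and 9.04 in hemisphere, and 8.91, 8.52 and 8.19 against 8.89, 9.05 and 9.16 in vermis. Ect2, the exchange factor that activates RhoA at the division plane, read 9.30, 9.20 and 8.96 against 9.35, 9.31 and 9.27 in hemisphere, and 9.11, 8.91 and 8.90 against 9.40, 9.36 and 9.38 in vermis. Anln overlapped in vermis and Ect2 in hemisphere, each through 1 wild type array. Anln differed by 0.46 ± 0.12 (adjusted p = 0.00939) and Ect2 by 0.28 ± 0.07 (adjusted p = 0.011), averaged and by limma. With the mean of all its probe sets Anln differed by 0.23 and was not called (adjusted p = 0.106 by limma). Racgap1, the centralspindlin subunit that binds Ect2, differed by 0.21 ± 0.07 (adjusted p = 0.0275 by limma). The Racgap1 call ended in 6 of 12 omissions, with adjusted p of 0.0501 to 0.062. The arrays whose omission ended it were wild type hemisphere replicate 2, wild type vermis replicate 2, SmoM2 hemisphere replicates 1 and 2, and SmoM2 vermis replicates 2 and 3. Under a random block for the pool Racgap1 had an adjusted p of 0.0674 by limma. Its next brightest probe set differed by 0.40 on average and passed (adjusted p over all probe sets = 0.00415 by limma). The dimmest one differed by 0.01. Prc1, which bundles the microtubules of the central spindle, differed by 0.10.

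The role of condensin and chromosome structure gave the largest role-wide median on average, 0.39, and 5 of its 6 members rose. Its 4 condensin genes, taken without Mki67 and Top2a, had a median of 0.46, and all 4 rose. Smc2 and Smc4 are the ATPase arms of condensin, Ncaph and Ncapg subunits of condensin I. Smc2 read 11.11, 11.03 and 10.75 against 11.67, 11.70 and 11.64 in hemisphere, and 10.97, 10.84 and 10.75 against 11.57, 11.64 and 11.62 in vermis. Every SmoM2 array stood above every wild type array by a wide margin. Smc2 rose by 0.70 ± 0.11 in hemisphere (adjusted p = 0.000512 by limma) and by 0.75 ± 0.11 in vermis (adjusted p = 0.000254), calls kept in all 12 omissions and in every alternative. Its averaged difference was 0.73 ± 0.08 (adjusted p = 6.59e-06 by limma), with a 95% interval from 0.57 to 0.89.

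Ncaph read 9.67, 9.47 and 9.55 against 9.91, 10.02 and 9.88 in hemisphere, and 9.49, 9.38 and 9.37 against 9.65, 9.85 and 9.93 in vermis, with no overlap inside a region. It rose by 0.38 ± 0.10 in hemisphere (adjusted p = 0.0257 by limma), 0.40 ± 0.10 in vermis (0.0182) and 0.39 ± 0.07 on average (0.00125). The hemisphere call of Ncaph ended without wild type hemisphere replicate 2 (adjusted p = 0.0901) or 3 (0.0572), or SmoM2 hemisphere replicate 1 (0.0636), 2 (0.0867) or 3 (0.0538). The vermis call ended without wild type vermis replicate 2 (0.0622) or 3 (0.0619), or SmoM2 vermis replicate 2 (0.0684) or 3 (0.0735), while the averaged call was kept in all 12 omissions. Smc4 read 11.05, 10.99 and 10.67 against 11.29, 11.20 and 11.31, and 11.00, 10.82 and 10.62 against 11.16, 11.18 and 11.31. Ncapg read 8.55, 8.10 and 7.70 against 8.53, 8.64 and 8.54, and 8.16, 8.02 and 7.63 against 8.39, 8.60 and 8.62. Smc4 did not overlap between genotypes, and Ncapg overlapped in hemisphere through the first wild type array. On average Smc4 differed by 0.38 ± 0.09 (adjusted p = 0.00451) and Ncapg by 0.53 ± 0.13 (adjusted p = 0.00685), by limma.

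**Figure D2:**
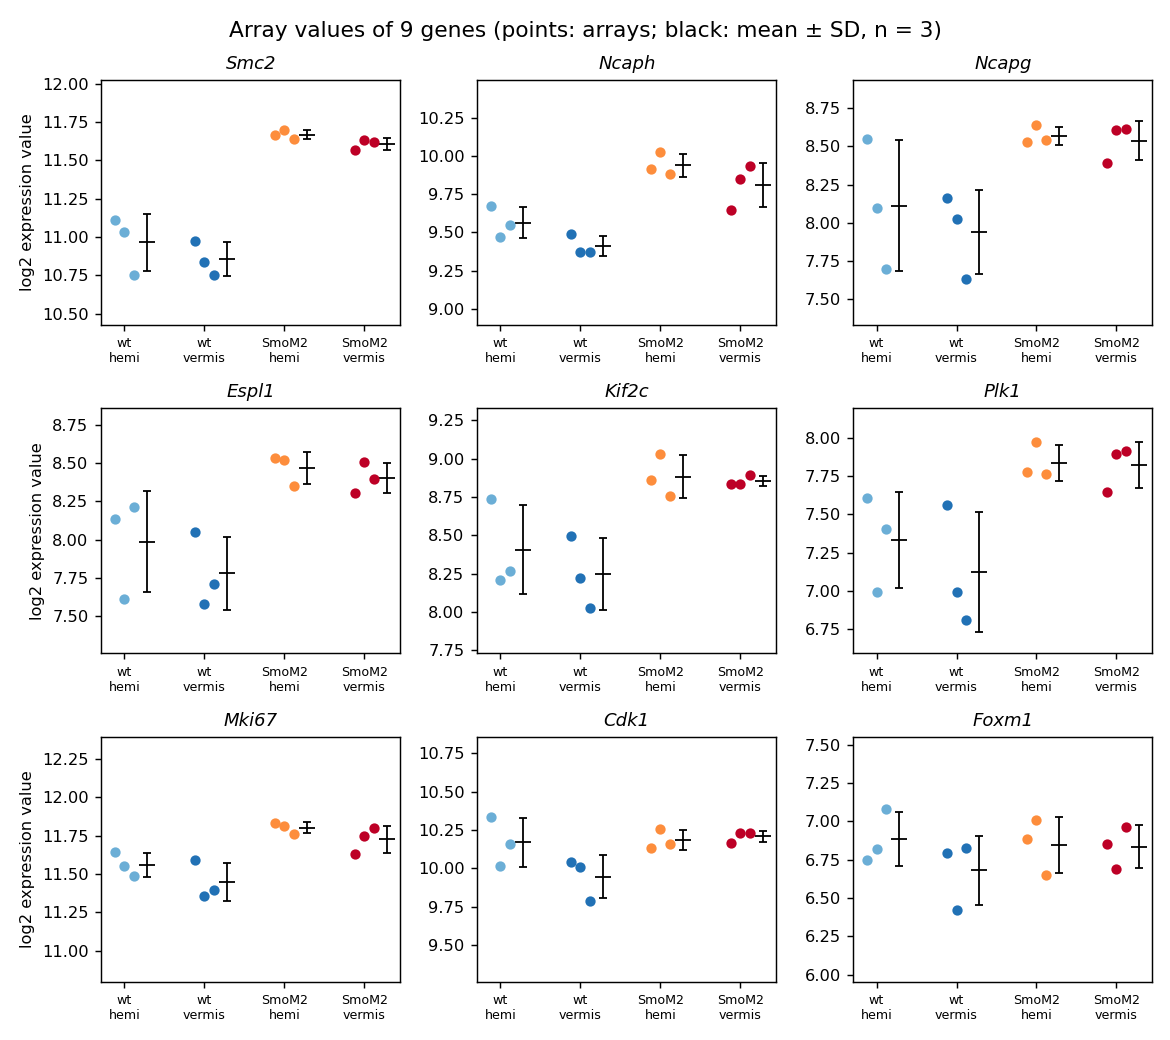
Log2 signal (vertical axis) of Smc2, Ncaph, Ncapg, Espl1, Kif2c, Plk1, Mki67, Cdk1 and Foxm1 on each array of the 4 groups, with the mean and SD of 3 arrays. Smc2 separates the genotypes widely in both regions, whereas the Foxm1 groups overlap.

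The brightest probe set gave the smallest difference for Smc2 and Smc4. The other 4 probe sets of Smc2 differed by 1.37, 1.38, 1.34 and 1.29 in hemisphere and by 1.08, 1.11, 1.03 and 1.36 in vermis. Those of Smc4 differed by 0.75 and 0.70 in hemisphere and by 0.56 and 0.53 in vermis. The other probe set of Ncapg differed by 1.27 and 0.72, and that of Ncaph by 0.37 and 0.46. All 12 condensin probe sets thus differed in the same direction in both regions, and for Smc2 the size ranged from 0.70 to 1.38 in hemisphere. Of the 32 members with several probe sets above the highest array median, these differed in sign for 9 in hemisphere, 4 in vermis and 6 on average. Of the 28 members not called on average, 8 had another probe set above the highest array median that passed over all probe sets. Besides Mybl2, Kif22 and Hmmr these were Plk4 (0.26), Bub3 (0.57), Kif11 (0.47) and Top2a (0.40), all higher, and Tpx2 (-0.65), lower. The probe set used for 7 members, Ncaph and Kif2c among them, carries the suffix _x_at, which marks probes that may match other transcripts.

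**Figure D3:**
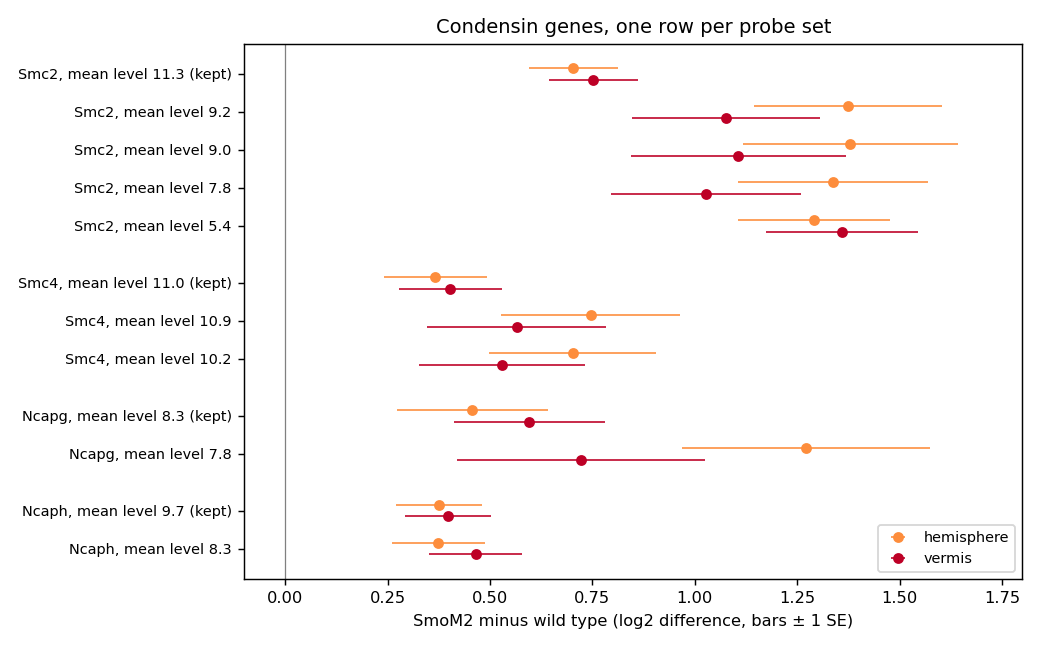
SmoM2 minus wild type log2 difference (horizontal axis) of each of the 12 probe sets of Smc2, Smc4, Ncapg and Ncaph in hemisphere and vermis, with bars of 1 SE. All lie above 0, and the probe set used for Smc2 has the smallest difference of its 5.

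The other members tied to chromosome structure were Mki67 and Top2a, both used as proliferation markers. Mki67, which coats mitotic chromosomes, read 11.64, 11.55 and 11.49 against 11.83, 11.81 and 11.76 in hemisphere, and 11.59, 11.36 and 11.40 against 11.63, 11.75 and 11.80 in vermis. It did not overlap within a region and rose by 0.26 ± 0.07 on average (adjusted p = 0.0111 by limma). Top2a, the topoisomerase that untangles chromosomes, read 11.60, 11.36 and 11.28 against 11.50, 11.53 and 11.49, and 11.41, 11.19 and 11.04 against 11.35, 11.42 and 11.50. Its groups overlapped in both regions, and the averaged difference was 0.15 ± 0.08 (adjusted p = 0.159 by limma), with a 95% interval from -0.02 to 0.32.

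Members whose SmoM2 arrays all lay above the wild type arrays numbered 32 in vermis, against 17.3% of all genes, and 13 in hemisphere, against 13.4%. In the opposite direction the hemisphere groups were apart for Spc25. Separated in both regions were 12 members: Cdc25b, Plk1, Cdc20, Espl1, Incenp, Cdca8, Spc24, Kif2c, Mki67, Smc2, Smc4 and Ncaph.

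Between regions, 0 members were called in wild type progenitors by limma, where 0.0385% of all genes were called higher in hemisphere and 0.148% lower. The signs nonetheless ran largely one way. So did those of the other mitosis and DNA replication lists described below, with 60 of 69 and 32 of 36 above 0. On the probe sets used, hemisphere was above vermis for 53 of 54 members, against 49.2% of all genes, with a median of 0.17 against -0.0025. Other probe sets of the same genes did not all share this sign. Among the condensin genes, those of Smc2 differed by -0.32, -0.28, -0.33 and 0.07, and those of Smc4 by -0.12 and -0.16. The other probe set of Ncapg differed by -0.50 and that of Ncaph by 0.23. Markers of other cells were mixed in this comparison. Differences lay below 0 for 15 of 16 oligodendrocyte lineage genes (median -0.46) and 10 of 10 GABAergic and Purkinje genes (-0.28). The same held for 11 of 12 endothelial and pericyte genes (-0.25). Differences lay above 0 for 8 of 12 microglial genes (median 0.07), as for the members. They lay above 0 for 5 of 12 astroglial, 4 of 10 meningeal and fibroblast and 2 of 4 unipolar brush cell genes. The part of these lists in the member difference was not tested. The 6 members at an unadjusted p under 0.05 were Ccnb2 (0.34), Aurka (0.33), Cdc25b (0.31), Kif4 (0.28), Birc5 (0.26) and Racgap1 (0.24), with the smallest adjusted p at 0.539. The same-numbered arrays of 1 genotype varied together, and in 36 of 54 members hemisphere exceeded vermis in all 3 wild type pairs, against 14.5% of all genes. Median differences of the pairs were 0.19, 0.15 and 0.20. A fit with the pool as a fixed block, chosen after seeing the data, gave 16 members at an unadjusted p under 0.05 and 0 called. Hemisphere and vermis arrays did not overlap in 10 members, against 4.07% of all genes. The wild type median became 0.103 when wild type hemisphere array 1 was omitted and 0.11 when wild type vermis array 3 was.

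In SmoM2 progenitors 0 members were called between regions, where 0.0165% of all genes were called higher in hemisphere and 0.044% lower, and 0 had an unadjusted p under 0.05. Hemisphere was above vermis for 40 members, against 52.1% of all genes, with a median of 0.03. Pair medians were 0.09, 0.05 and -0.05. Omitting SmoM2 hemisphere array 2 or 3 gave medians of -0.00674 and 0.0506, and omitting SmoM2 vermis array 1, 2 or 3 gave -0.0098, 0.0513 and 0.0466.

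The difference between regions in the SmoM2 effect was tested as an interaction. By limma 0 members were called, as were 0% of all genes in either direction, and 0 members had an unadjusted p under 0.05. The smallest was that of Aurka, with a difference of -0.32 ± 0.17 (unadjusted p = 0.0816 by limma, adjusted p = 1). On the probe sets used, the vermis difference was the larger for 52 of 54 members, against 47.7% of all genes, with a median interaction of -0.14. Other probe sets did not all share this sign. Among the condensin genes, the interaction was 0.30, 0.27, 0.31 and -0.07 for those of Smc2, and 0.18 and 0.17 for those of Smc4. For the other probe set of Ncapg it was 0.55, and for that of Ncaph -0.09. The interaction was also below 0 for 56 of 69 other mitosis genes and 28 of 36 DNA replication genes. The interaction was above 0 for 12 of 12 endothelial and pericyte genes (median 0.56) and 15 of 16 oligodendrocyte lineage genes (0.42). It was also above 0 for 10 of 10 GABAergic and Purkinje genes (0.27) and 4 of 4 unipolar brush cell genes. As for the members, it was below 0 for 9 of 12 microglial genes (median -0.19) and 8 of 12 astroglial genes (-0.06). Meningeal and fibroblast genes were split, with 6 above 0 and 4 below. The part of these lists was not tested. The interaction shares its wild type arrays with the comparison of regions, so the signs are not independent of those above. The median became -0.0506 when wild type hemisphere array 1 was omitted, -0.0827 for wild type vermis array 3 and -0.236 for wild type vermis array 1. The pool as a fixed block, again chosen after seeing the data, gave 5 members at an unadjusted p under 0.05 and 0 called. The counts of 20 calls in vermis and 3 in hemisphere were therefore not accompanied by any member with a called difference between regions.

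**Figure D4:**
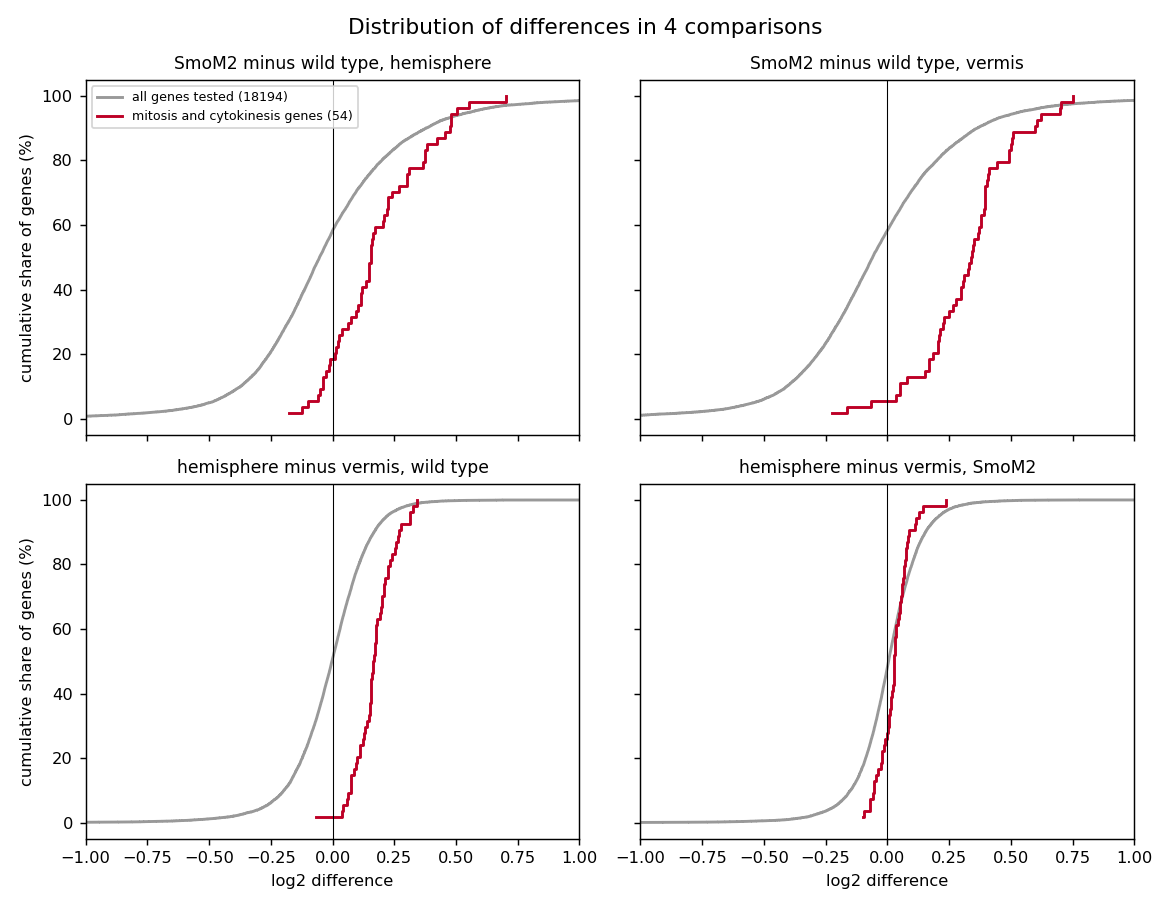
Cumulative share of genes (vertical axis) against the log2 difference (horizontal axis) for the 54 members and all 18194 genes in 4 comparisons. At the median the member curve lies to the right of the curve of all genes for SmoM2 in vermis (median 0.34) and in hemisphere (median 0.16), and for wild type hemisphere minus vermis (median 0.17).

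The wild type arrays differed more among themselves than the SmoM2 arrays did. Relative to each gene's mean over 12 arrays, the median member deviation was 0.12, -0.06 and -0.10 on the wild type hemisphere arrays and -0.05, -0.23 and -0.35 on the wild type vermis arrays. On SmoM2 arrays it was 0.12, 0.21 and 0.07 in hemisphere and 0.02, 0.16 and 0.12 in vermis. The third wild type vermis array held the lowest of the 12 values for 29 members, and the first wild type hemisphere array held the highest for 13. The spread within a group was larger in wild type, with a median member SD of 0.175 in hemisphere and 0.186 in vermis, against 0.094 and 0.087 in SmoM2. All genes showed the same order with a smaller gap, at 0.176 and 0.143 against 0.115 and 0.107.

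**Figure D5:**
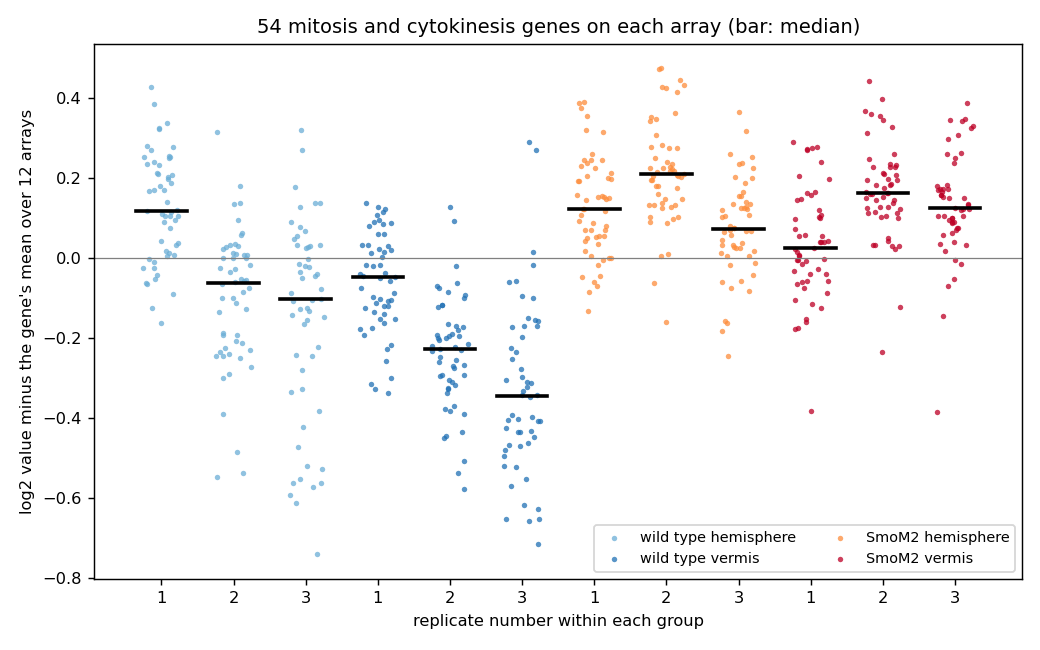
Deviation of each of the 54 members from its own 12-array mean (vertical axis, log2) on each array, with a bar at the array's median. The third wild type vermis array is lowest (median -0.35) and the second SmoM2 hemisphere array highest (median 0.21).

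The wider mitotic programme was described with 69 measured genes of a list of 76 that holds none of the members. On average 29 rose, where 15.4% of all genes did, with a median of 0.20, and 1 fell, the kinetochore protein Zwint (-0.19, adjusted p = 0.0414 by limma), which is named here after its value was seen. The region counts were 8 higher in hemisphere and 17 in vermis, with medians of 0.14 and 0.28, where 7.62% and 7.56% of all genes were higher. The hemisphere count of this list lay near that background. The 6 with the smallest adjusted p in the averaged comparison included a pair of condensin subunits, Ncapd2 (0.47, adjusted p = 0.000623 by limma) and Ncapd3 (0.39, adjusted p = 0.00165). The others were Zwilch, a kinetochore protein (0.61), Cit, the citron kinase of the midbody (0.40), the phosphatase Cdc25a (0.41) and the centromere protein Cenph (0.44). Among 36 measured genes of DNA replication and the start of S phase, 24 rose and 0 fell on average, against 15.4% and 20.1% of all genes, with a median of 0.36. The medians of that list in hemisphere and vermis were 0.29 and 0.43, against 0.16 and 0.34 for the mitotic members.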

How the data were processed

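The authors' deposited table holds 1 log2 signal per probe set and array for 45101 probe sets and 12 arrays of biotin-labelled RNA. Partek and RMA are named in the submitters' processing notes, with no version recorded there. RMA corrects background and equalises the distributions of arrays, so a shift shared by all genes is not visible. The platform annotation, which can be old, gave 34958 probe sets 1 gene symbol, 932 several and 9211 none, and 64 were controls. The brightest probe set per symbol left 18194 genes.

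All tests were limma 3.58.1 in R 4.3.3, with 1 mean per group, 8 residual degrees of freedom, empirical Bayes moderation and two-sided p-values adjusted by Benjamini-Hochberg over all genes. The 6 comparisons were SmoM2 against wild type in each region and averaged, hemisphere against vermis in each genotype, and their interaction. Comparisons that use the same group share its arrays. Depth has no counterpart on arrays, so 3 per group limit the precision, and p-values measure the spread between arrays, each of a pool of 5 mice. In the averaged comparison the hemisphere and vermis arrays counted as independent, although same-numbered ones varied together. The members and lists were chosen with earlier results of these data known. Values are given for members that passed in any comparison, for at least 2 members per role and for fixed proliferation markers. Other members are named to account for all of them.

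Pairing was checked by correlating deviations from group means. Same-numbered hemisphere and vermis arrays of 1 genotype correlated at 0.527, 0.337 and 0.511 in wild type and 0.142, 0.275 and 0.166 in SmoM2. They were read as pairs from the data and not the labels. Numbers across genotypes correlated between -0.224 and 0.177 and were not read as pairs. The main model had no term for the pairs and counted all arrays as independent. With the pool as a random block (correlation 0.359), averaged SEs were larger, for example for Plk1 (0.147 against 0.131) and Foxm1 (0.122 against 0.098). Alternatives were the replicate number as a block, the pool as a random or fixed block, repeated quantile normalization, centring on medians, brighter genes only, the mean of all probe sets, array weights, trended robust moderation and leaving out each array. The pipeline was tested on simulated data with 18194 genes and independent arrays. Of 1.25-fold changes it recovered 2.99% in hemisphere, 1.49% in vermis, 23.9% in the average and 0% for the interaction. Of 2-fold changes it recovered 86.4%, 89.4%, 98.5% and 62.1% in the same order. A member that did not pass can therefore still differ by a small fold. Promoters were searched in Python 3.11.15, and figures drawn with matplotlib 3.10.9.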

Additional observations from a re-analysis of the deposited data

How the results depend on the processing

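With all 12 arrays the median member difference kept its sign in every comparison and alternative, and no called member changed sign. Among the 31 named members, uncalled values changed sign 8 times in hemisphere, 0 in vermis, 2 on average, 13 and 44 between regions in wild type and SmoM2, and 28 for the interaction over all settings, single-array omissions included, such as Foxm1 in hemisphere with the mean of all probe sets (0.05). The hemisphere count of 3 called members became 6 with the replicate number as a block, 5 with the pool as a random replicate block, 6 with brighter genes only, 6 with the mean of all probe sets, 8 with array weights and 8 with trended robust moderation. The vermis count of 20 became 11 with quantile normalization repeated. With 1 array left out, the called members ranged from 1 to 13 in hemisphere, 2 to 26 in vermis and 19 to 34 on average, and the medians from 0.0933 to 0.227, 0.259 to 0.406 and 0.208 to 0.279. Between regions 0 were called in every omission, with medians from 0.103 to 0.246 in wild type, -0.0098 to 0.0513 in SmoM2 and -0.236 to -0.0506 for the interaction. Replicate numbers did not pair the genotypes, and the replicate block gave 26 calls in vermis and 30 on average. The pool as a random replicate block gave 24 and 20, losing Aurka, Bub1b, Birc5, Cenpe, Kif4 and Racgap1 on average, and as a fixed block, added after seeing the data, called 0 members between regions. The cause of these shifts was not tested. For Kif14 and Kif15 the signal over background limits the value.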
